A study of Homo sapiens with 11 samples.

Results

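EPAS1 and 9 other genes of the hypoxia response were followed in A673sh cells: HIF1A, ARNT, EGLN1, EGLN3, VEGFA, ADM, CA9, NDRG1 and ANGPTL4. They were chosen by name, as the pathway around EPAS1, and every probe set that the platform annotation gives to 1 of these symbols alone was read. Of the 10 genes, 9 have such a probe set, 25 in all, among 54675 probe sets on the array. For CA9 no probe set carries that symbol alone, and it was not analysed. A gene was tested where a probe set of it was at or above the 60th percentile on some array, which 8 of the 10 did (17 probe sets), among 12326 genes tested. EGLN3 was measured but did not reach it.

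A673sh is a derivative of the Ewing sarcoma line A673 in which doxycycline switches on an shRNA against the fusion EWS-FLI1. All 11 arrays come from these cells after transient transfection, so the share of cells that took up a plasmid is not known. The sh-scrambled and sh-FOXO1 groups received a pRS plasmid with a scrambled shRNA or an shRNA against endogenous FOXO1, and each was measured on 2 arrays with doxycycline (1 µg/ml, 48 h) and on 2 arrays without. The other 3 groups had 1 array each and no doxycycline: empty vector (pCDNA3), AKT-resistant FOXO1 (T24A/S256A/S319A) and CDK2-resistant FOXO1 (S249A/S298A). EWS-FLI1 knockdown below means arrays with against without doxycycline. No array has doxycycline on cells without the inducible shRNA, so an effect of doxycycline itself cannot be told apart from the knockdown. The labels number the replicates without saying that they are separate cultures, so p-values measure the spread between these arrays, which may be technical. In bulk RNA, fewer expressing cells and less RNA per cell cannot be told apart.

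EPAS1 encodes HIF-2α, an oxygen-regulated transcription factor that pairs with the constant subunit HIF-1β, the product of ARNT, in the same way as HIF-1α, the product of HIF1A. With oxygen, the prolyl hydroxylases encoded by EGLN1 and EGLN3 mark the α subunits for destruction through the VHL ubiquitin ligase. Without oxygen the pairs bind a short core sequence near target genes, many of them for blood vessel growth, glycolysis and matrix remodelling. The arrays measured RNA alone, so α subunit protein, which oxygen controls, was not measured.

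Promoter sequences of EPAS1, ADM and EGLN1 are shown. EPAS1 and ADM gave the widest ranges of RNA level below, and EGLN1 is the prolyl hydroxylase gene that could be tested. Each sequence is the run of 250 bases before the RefSeq transcription start (GRCh38.p14), read 5′ to 3′ on the gene's strand. The hypoxia response core (ACGTG or GCGTG, searched on both strands) is in capitals. EPAS1 lies at chr2:46297157-46297406 on the plus strand, ADM at chr11:10304823-10305072 on the plus strand and EGLN1 at chr1:231422288-231422537 on the minus strand.
EPAS1: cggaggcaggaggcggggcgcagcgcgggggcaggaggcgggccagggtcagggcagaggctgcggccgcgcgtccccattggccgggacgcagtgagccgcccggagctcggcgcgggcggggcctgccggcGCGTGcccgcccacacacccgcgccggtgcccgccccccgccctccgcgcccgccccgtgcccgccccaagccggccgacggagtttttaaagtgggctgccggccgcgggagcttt
ADM: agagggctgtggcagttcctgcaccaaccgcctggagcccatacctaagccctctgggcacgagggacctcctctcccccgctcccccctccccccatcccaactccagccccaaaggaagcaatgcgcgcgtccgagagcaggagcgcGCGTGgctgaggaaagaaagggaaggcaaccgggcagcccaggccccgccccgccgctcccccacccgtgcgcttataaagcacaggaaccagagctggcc
EGLN1: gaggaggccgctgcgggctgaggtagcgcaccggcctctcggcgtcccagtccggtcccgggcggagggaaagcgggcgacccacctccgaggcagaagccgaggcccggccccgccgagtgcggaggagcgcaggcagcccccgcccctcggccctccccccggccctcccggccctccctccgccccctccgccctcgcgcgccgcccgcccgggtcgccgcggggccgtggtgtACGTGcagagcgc

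The core begins 117 bases before the start in EPAS1, 101 bases in ADM and 13 bases in EGLN1. Of the 9 windows of these genes, from 8 genes since HIF1A has a pair of start sites, 6 held it (66.7%): those of EPAS1, EGLN1, ADM, CA9, ANGPTL4 and the upstream start of HIF1A. It stood in 43.2% of all 35116 windows and in 62 of 85 windows of the hypoxia target genes listed below (72.9%). The core is GC-rich and common near starts, and a match is a description, not a binding site. The FOXO core TGTTTAC was found in 0 of the 9 windows, against 2.98% of all, and the ETS core CCGGAAG in 0 of 9, against 8.52% of all (both strands). No match says only that these letters are not in these windows. Windows of VEGFA and NDRG1 were not analysed here.

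The labels were checked with FOXO1 and FLI1 before the hypoxia genes were read. By probe set 202723_s_at the log2 level of FOXO1 was 5.86 and 5.81 in sh-scrambled cells without doxycycline and 7.35 and 7.04 with it. In sh-FOXO1 cells it was 4.97 and 4.80 without doxycycline and 5.76 and 5.75 with it. On the plasmid arrays it was 5.84 with empty vector, 8.30 with AKT-resistant and 7.06 with CDK2-resistant FOXO1. By probe set 202724_s_at the levels were 5.87 and 6.02 in sh-scrambled cells, 7.79 and 7.80 with doxycycline, 4.41 and 4.46 in sh-FOXO1 cells and 6.18 and 6.38 with doxycycline. FOXO1 was thus lower in sh-FOXO1 cells by both, while the knockdown difference was 1.36 and 0.86 by the former and 1.85 in each cell group by the latter. A further probe set, 228484_s_at, reached the filter level on 2 arrays and differed by −0.04 and 0.00 with knockdown. FLI1, whose 3′ part is in the fusion, was at 8.84 and 8.71 in sh-scrambled cells without doxycycline and at 6.92 and 6.93 with it. In sh-FOXO1 cells the corresponding FLI1 levels were 8.84 and 8.56, and 7.17 and 7.25, and under doxycycline FLI1 differed by 0.29 between sh-FOXO1 and sh-scrambled (limma, adjusted p = 0.065). The other FLI1 probe sets past the filter, 210786_s_at and 211825_s_at, gave 0.00 and −0.03 there. Of 7 Ewing sarcoma markers, all 7 passed the filter on low values and their mean level was 10.6 to 10.9 on the arrays without doxycycline and 8.94 to 9.05 with it. Of 8 endothelial markers, PECAM1, TEK and KDR reached the 60th percentile of an array, whereas CDH5, VWF, TIE1, ERG and ESAM did not. Replicate arrays correlated at 0.991 to 0.996 over the 12326 genes tested, with 1 probe set per gene.

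The RNA of EPAS1 spanned the widest range of the 8 genes. Its level was 5.41 and 5.41 in sh-scrambled cells without doxycycline and 9.80 and 9.92 with it. In sh-FOXO1 cells it was 5.52 and 5.53 without doxycycline and 8.04 and 8.16 with it. Both doxycycline groups lay above all other arrays, and the sh-FOXO1 pair lay below the sh-scrambled pair. EWS-FLI1 knockdown went with a difference of 4.45 (standard error 0.08), or 21.8-fold, in the sh-scrambled group and of 2.58 (0.08), or 5.97-fold, in the sh-FOXO1 group. With doxycycline, sh-FOXO1 minus sh-scrambled was −1.76 on the log2 scale, a ratio of 3.38. The study picked EPAS1 from genes that changed on these same arrays, so these values are a description and no test is given. FOXO1 silencing without doxycycline was not among the grounds for picking it. There the difference was 0.11 (standard error 0.08, adjusted p = 0.31, limma), with EPAS1 near the middle of each array (percentile 55.1 at its lowest).

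Ordered by group mean, EPAS1 was highest in sh-scrambled cells with doxycycline (9.86 ± 0.09, SD, n = 2), followed by sh-FOXO1 cells with doxycycline (8.10 ± 0.09, SD, n = 2). AKT-resistant FOXO1 (6.83), empty vector (5.93) and CDK2-resistant FOXO1 (5.71) came next on 1 array each. The sh-FOXO1 cells (5.52 ± 0.01, SD, n = 2) and sh-scrambled cells (5.41 ± 0.003, SD, n = 2) without doxycycline were lowest. These last neighbours did not differ in the limma test above, and the neighbours with 1 array have no spread to be read against. All of this comes from probe set 200878_at. The other EPAS1 probe sets, 200879_s_at and 241055_at, reached at most percentiles 40.5 and 16.9 of an array, and their knockdown differences in sh-scrambled cells were 0.11 and −0.22.

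**Figure D1:**
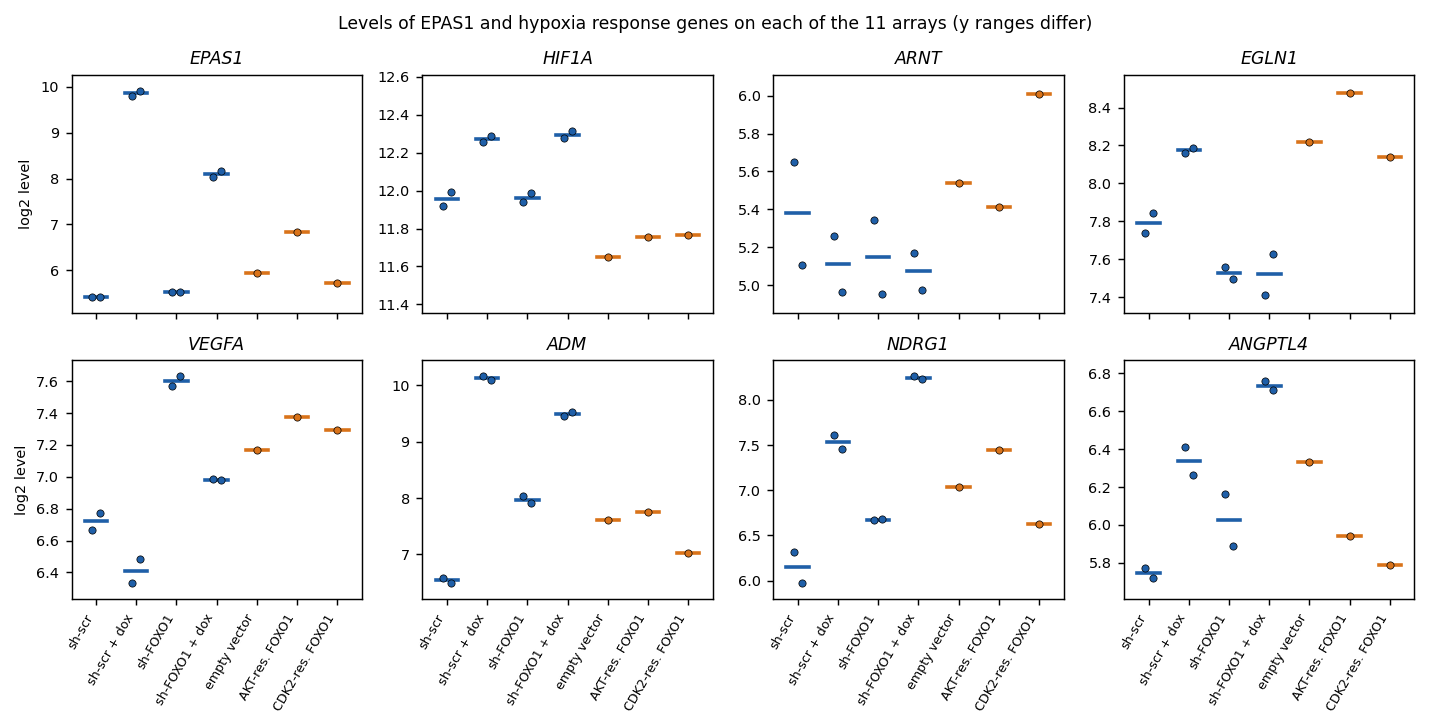
Log2 level on each of the 11 arrays (points) and group mean (lines) for the 8 genes tested, with the shRNA groups in blue, the plasmid groups in orange and a y range of its own for each gene. EPAS1 and ADM are highest in sh-scrambled cells with doxycycline, NDRG1 and ANGPTL4 in sh-FOXO1 cells with doxycycline, and VEGFA in sh-FOXO1 cells without it.

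HIF1A, the other α subunit gene, was at the 99th percentile or above on every array and changed little. Its level was 11.92 and 11.99 in sh-scrambled cells without doxycycline and 12.26 and 12.29 with it. In sh-FOXO1 cells it was 11.94 and 11.99 without doxycycline and 12.28 and 12.31 with it. The doxycycline arrays lay above the others in both cell groups. The knockdown differences were 0.31 (standard error 0.07, adjusted p = 0.0038, limma) and 0.33 (adjusted p = 0.0030), which is past the limit on p but not the limit of 1 set on the fold change. FOXO1 silencing moved HIF1A by 0.02 with doxycycline and 0.01 without (adjusted p = 0.82 and 0.96).

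ARNT, the shared partner of both α subunits, gave no call in any comparison. The probe set used, 231016_s_at, is dim, and its replicates differed more than the groups, from 5.11 to 5.65 in sh-scrambled cells without doxycycline and from 4.96 to 5.26 with it (knockdown difference −0.27, standard error 0.20, adjusted p = 0.28, limma). The brighter probe set 218221_at was at 7.15 and 7.22 without doxycycline and 7.09 and 7.17 with it in sh-scrambled cells. In sh-FOXO1 cells this probe set read 6.98 and 6.85, and 6.87 and 7.06. Its groups thus overlapped across doxycycline in both cell groups.

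EGLN1, which encodes PHD2, the main oxygen-sensing prolyl hydroxylase, was higher with EWS-FLI1 knockdown in sh-scrambled cells by less than the limit. The probe set used for the gene, 221497_x_at, was at 7.74 and 7.84 without doxycycline and 8.16 and 8.19 with it. In sh-FOXO1 cells it was at 7.56 and 7.50 without doxycycline and 7.41 and 7.63 with it, where the groups overlap. By limma the knockdown difference in sh-scrambled cells was 0.39 (standard error 0.09) with an adjusted p of 0.0056, while sh-FOXO1 cells gave −0.01 (adjusted p = 0.95). The test of the difference between these effects gave −0.39 (adjusted p = 0.11). The brightest EGLN1 probe set, 223046_at, read 8.98 and 9.32 without doxycycline and 9.95 and 10.00 with it in sh-scrambled cells, and 8.56 and 8.63, and 9.16 and 9.42, in sh-FOXO1 cells. By it the knockdown difference was 0.82 and 0.69, with no overlap in either cell group. FOXO1 silencing with doxycycline gave −0.66 (adjusted p = 0.0014), just inside the limit of 0.7, and −0.68 by the brightest probe set. Without array 2 of the sh-FOXO1 doxycycline group the former was −0.77 and met the limits. EGLN3, which encodes the hydroxylase PHD3 and is itself a known HIF target, lay between 4.70 and 5.48 on all arrays by probe set 222847_s_at and between 3.50 and 4.05 by 219232_s_at. The highest percentiles they reached were 56.2 and 23.6.

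ADM encodes adrenomedullin, a secreted vasodilator peptide and a known HIF target. Its knockdown difference in sh-scrambled cells was, after that of EPAS1, the largest of the 8 genes. Its level was 6.59 and 6.49 in sh-scrambled cells without doxycycline and 10.16 and 10.09 with it. The corresponding levels in sh-FOXO1 cells were 8.03 and 7.91, and 9.46 and 9.53. All 4 shRNA groups were apart from each other. With EWS-FLI1 knockdown ADM rose by 3.59 in sh-scrambled cells (standard error 0.08, adjusted p = 1.7e-08, limma). The rise in sh-FOXO1 cells was 1.52 (adjusted p = 1.2e-06). The knockdown effect was smaller by 2.07 in sh-FOXO1 cells (standard error 0.11, adjusted p = 6.5e-05). ADM parted from EPAS1 in where that difference lay. Without doxycycline, sh-FOXO1 cells had more ADM by 1.43 (adjusted p = 3.0e-05), whereas with doxycycline they had less by 0.63 on the log2 scale (adjusted p = 0.00085), which did not reach the limit of 0.7. EPAS1 differed by 0.11 and −1.76 in the same comparisons.

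VEGFA, the endothelial growth factor gene and a classical HIF target, did not follow EPAS1. The probe set used, 210513_s_at, was at 6.67 and 6.78 in sh-scrambled cells without doxycycline and 6.33 and 6.48 with it. In sh-FOXO1 cells it read 7.57 and 7.63 without doxycycline and 6.98 and 6.98 with it, so that each doxycycline pair lay below its own control pair. The knockdown differences were −0.31 (standard error 0.08, adjusted p = 0.0085, limma) and −0.62 (adjusted p = 0.00024), both inside the limit of 1. With FOXO1 silencing and no doxycycline VEGFA rose by 0.88 (standard error 0.08, adjusted p = 0.00023), and with doxycycline the difference was 0.58 (adjusted p = 0.0014), under the limit. The probe sets disagreed on the knockdown in sh-scrambled cells. The other 3, 210512_s_at, 212171_x_at and 211527_x_at, gave 0.05, 0.13 and 0.10 there. All 4 gave negative differences in sh-FOXO1 cells (−0.71 to −0.31) and positive ones for FOXO1 silencing without doxycycline (0.54 to 1.32). The difference between the knockdown effects was −0.30 by the probe set used (adjusted p = 0.15, limma). By 210512_s_at, 212171_x_at and 211527_x_at it was −0.55, −0.44 and −0.81. The brightest, 210512_s_at, read 10.07 and 10.24 in sh-scrambled cells without doxycycline, 10.09 and 10.33 with it, 10.93 and 11.05 in sh-FOXO1 cells without it and 10.46 and 10.53 with it.

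NDRG1, a stress and differentiation gene induced by hypoxia, rose in both cell groups. Its level was 6.32 and 5.97 in sh-scrambled cells without doxycycline and 7.61 and 7.46 with it, and 6.67 and 6.68, and 8.26 and 8.23, in sh-FOXO1 cells. The knockdown effect was 1.39 (standard error 0.11, adjusted p = 1.7e-05, limma) and 1.57 (adjusted p = 9.8e-06), and the difference between these effects was 0.19 (adjusted p = 0.56). NDRG1 was higher, not lower, in sh-FOXO1 cells with doxycycline, by 0.71 (adjusted p = 0.0031), which is just past the limit of 0.7. That call was lost without array 1 of the sh-FOXO1 doxycycline group (0.70) and without array 2 of the sh-scrambled doxycycline group (0.64). EPAS1 stood at −1.76 there.

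ANGPTL4, which encodes a secreted inhibitor of lipoprotein lipase, is induced by hypoxia and by PPAR factors. Probe set 223333_s_at was at 5.77 and 5.72 in sh-scrambled cells without doxycycline and at 6.41 and 6.27 with it. In sh-FOXO1 cells it was at 6.17 and 5.89, and at 6.76 and 6.71. Each doxycycline pair lay above its own control pair. The knockdown differences of 0.59 (standard error 0.10, adjusted p = 0.0012, limma) and 0.71 (adjusted p = 0.00048) did not reach the limit of 1, nor did those of the second probe set, 221009_s_at (0.70 and 0.49).

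**Figure D2:**
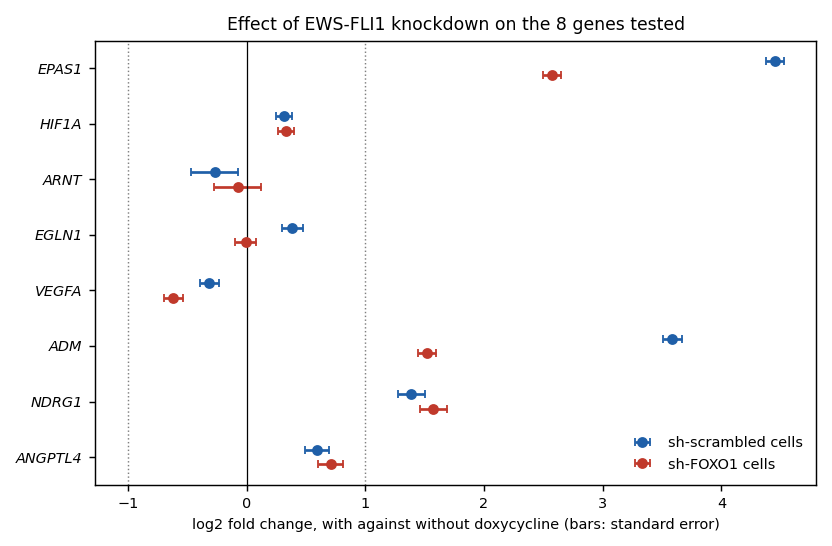
Log2 fold change with against without doxycycline for the 8 genes tested, in sh-scrambled (blue) and sh-FOXO1 (red) cells, with standard errors from limma as bars and the limit of 1 dotted. EPAS1 (4.45 and 2.58) and ADM (3.59 and 1.52) are the genes whose paired points lie far apart, and NDRG1 (1.39 and 1.57) is past the limit in both.

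Counted over the 8 genes tested, 3 met the limits for EWS-FLI1 knockdown in sh-scrambled cells (a log2 fold change past 1 at an adjusted p under 0.05), all higher: EPAS1, ADM and NDRG1. None was called lower by limma, at an adjusted or an unadjusted p, in either knockdown or in FOXO1 silencing without doxycycline. Among all genes tested 15.6% were called, 8.1% higher and 7.49% lower. In sh-FOXO1 cells the same 3 genes were called higher, against 13.6% of all genes (7.27% higher, 6.38% lower). EPAS1 was chosen by the study for such a change, so 2 of the other 7 stand beside that background. For FOXO1 silencing with doxycycline (limit 0.7) NDRG1 was called higher and EPAS1 lower, against 5.45% of all genes (3.08% higher, 2.37% lower). For FOXO1 silencing without doxycycline ADM and VEGFA were called higher and 0 lower, against 5.78% (3.45% higher, 2.33% lower). The difference between the knockdown effects of the cell groups, the interaction, was called in EPAS1 and ADM, both smaller in sh-FOXO1 cells, against 3.91% of all genes (1.46% higher, 2.45% lower). VEGFA was not called by the probe set used. By 211527_x_at it met these limits in a limma fit to all probe sets (−0.81, adjusted p = 0.014). EPAS1 was also picked for its fall with FOXO1 silencing under doxycycline, and that fall enters the interaction. Without EPAS1, 1 of the other 7 genes stands beside each background: NDRG1 for silencing with doxycycline and ADM for the interaction. Over all genes the median log2 fold change lay between −0.07 and 0.01 in these comparisons. With 8 genes, a count of 1 or 2 is too small to set the genes apart from the background.

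**Figure D3:**
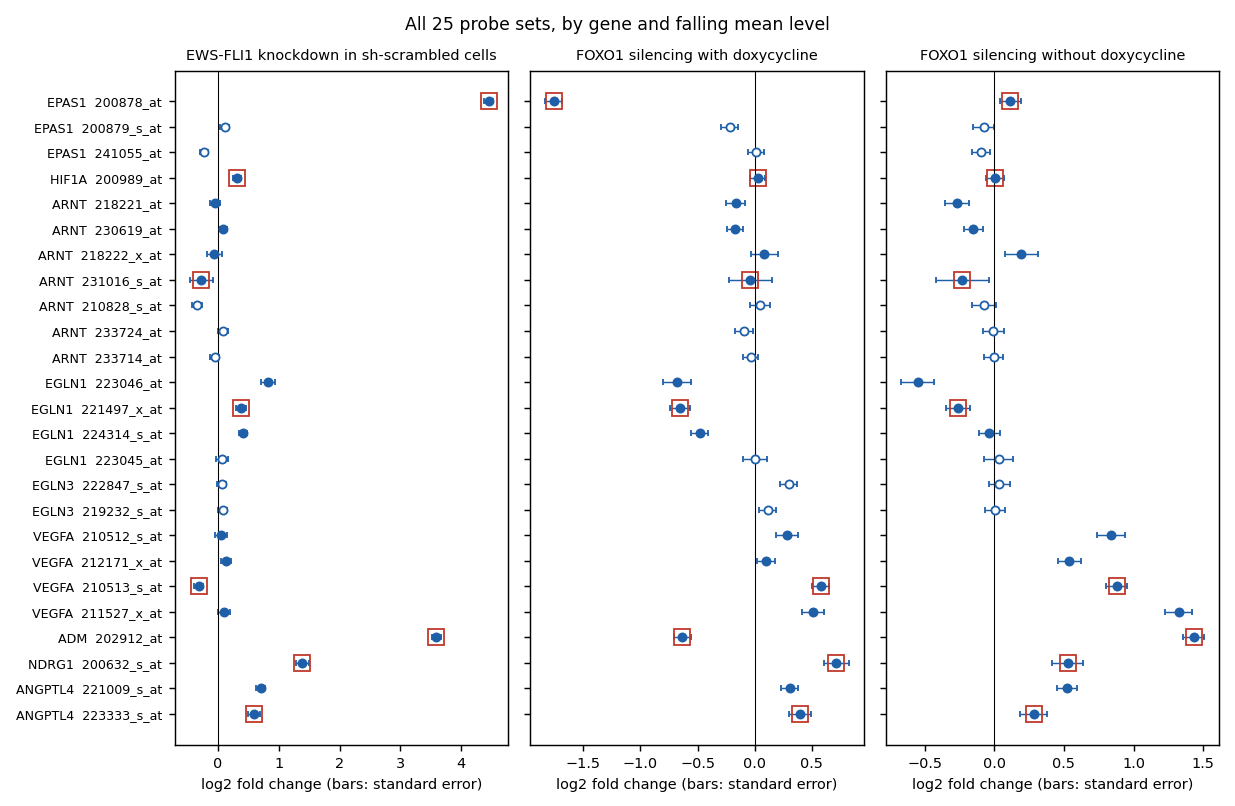
Log2 fold changes with standard errors for all 25 probe sets, from a fit to all probe sets with 1 symbol, in 3 comparisons. Filled points passed the filter on low values, and red squares mark the probe set used for the gene. Dim EPAS1 and EGLN1 probe sets sit near 0, the EGLN1 probe sets past the filter run from 0.39 to 0.82 in the left panel, and VEGFA probe sets lie on both sides of 0 there.

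A list of 63 hypoxia target genes outside the 10 was read to see whether targets at large moved like EPAS1, and 58 were tested. It was written from general knowledge, but with earlier results of these data known. The shares below are thus a description and no independent evidence. With EWS-FLI1 knockdown in sh-scrambled cells 15 rose (25.9%, against 8.1% of all genes) and 4 fell (6.9%, against 7.49%), with a median log2 fold change of 0.31 against −0.06 over all genes. In sh-FOXO1 cells 12 rose (20.7%, against 7.27% of all genes) and 3 fell (5.17%, against 6.38%), with a median of 0.18, and 11 targets rose in both cell groups. Of the 15, the probe sets used for STC1 and CA12, a carbonic anhydrase gene, passed the filter on low values through the doxycycline arrays alone, so those 2 had to differ and the count is a description. Their probe sets that passed on 10 or 11 arrays gave 3.44 and 3.84 for STC1 and 2.05 and 2.20 for CA12. The probe sets used for LOX, IGFBP3 and RORA passed on 7, 6 and 5 arrays, among them the 4 with doxycycline. That of LOX passed on no shRNA array without doxycycline, so among the shRNA arrays it is in the same position. LOX probe set 215446_s_at, which passed on 11 arrays, gave 5.19. The list is uneven. Of 35 targets outside glycolysis and the EPAS1-preferring genes, 14 rose and 1 fell in sh-scrambled cells, whereas of 20 glycolysis targets 1 rose and 2 fell.

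The largest rise was that of LOX. This gene, which encodes the collagen cross-linking enzyme lysyl oxidase, was at 5.25 and 5.24 in sh-scrambled cells without doxycycline and at 11.1 and 10.9 with it, which is a rise of 5.78 with a standard error of 0.09 (adjusted p = 5.4e-09, limma). The carrier of insulin-like growth factors, IGFBP3, rose by 4.95, LOXL2, a second cross-linking enzyme, by 3.83, and STC1, the hormone stanniocalcin 1, by 3.61. The chemokine receptor gene CXCR4, also a known HIF target, fell by 2.90 (adjusted p = 3.1e-07). In glycolysis PFKFB3, an activator of the pathway, rose by 2.17, while hexokinase 2 (HK2) fell by 1.17 and TPI1, the gene of triosephosphate isomerase, by 1.04. The brighter TPI1 probe sets, 213011_s_at and 200822_x_at, gave −0.31 and −0.32.

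Genes reported to prefer HIF-2α over HIF-1α were mostly out of reach. Of 7 in the list, CCND1, PLIN2 and DLL4 were tested. The cyclin D1 gene CCND1, which is also among the Ewing sarcoma markers, fell by 1.77 and 2.14 with knockdown in the 2 cell groups (adjusted p = 8.1e-06 and 3.2e-06, limma). PLIN2, a lipid droplet protein gene, and DLL4, a Notch ligand gene, differed by 0.05 and 0.08 in sh-scrambled cells. Both are dim, with percentiles of 62.4 and 62.5 at their highest, so these small differences say little. EPO, the gene of erythropoietin, lay between 3.92 and 5.40 and TGFA, a growth factor gene, between 3.81 and 5.31 over all arrays and probe sets, below the 60th percentile of each.

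Of 12 tested proteins that control or assist the HIF factors, 1 was called with knockdown in each cell group (8.33%, against 15.6% and 13.6% of all genes): CITED2, which encodes a competitor of the HIF factors for the coactivators CBP and p300, fell by 1.68 (standard error 0.08, adjusted p = 7.4e-07, limma) and 1.88 (adjusted p = 5.3e-07). HIF1AN, the asparagine hydroxylase FIH, was called higher after FOXO1 silencing with doxycycline (0.74, adjusted p = 0.00075), but its brightest probe set gave 0.21. CUL2, the scaffold of the VHL ligase, was called lower after FOXO1 silencing without doxycycline (−1.12, adjusted p = 0.00044), but its brightest probe set gave −0.16.

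**Figure D4:**
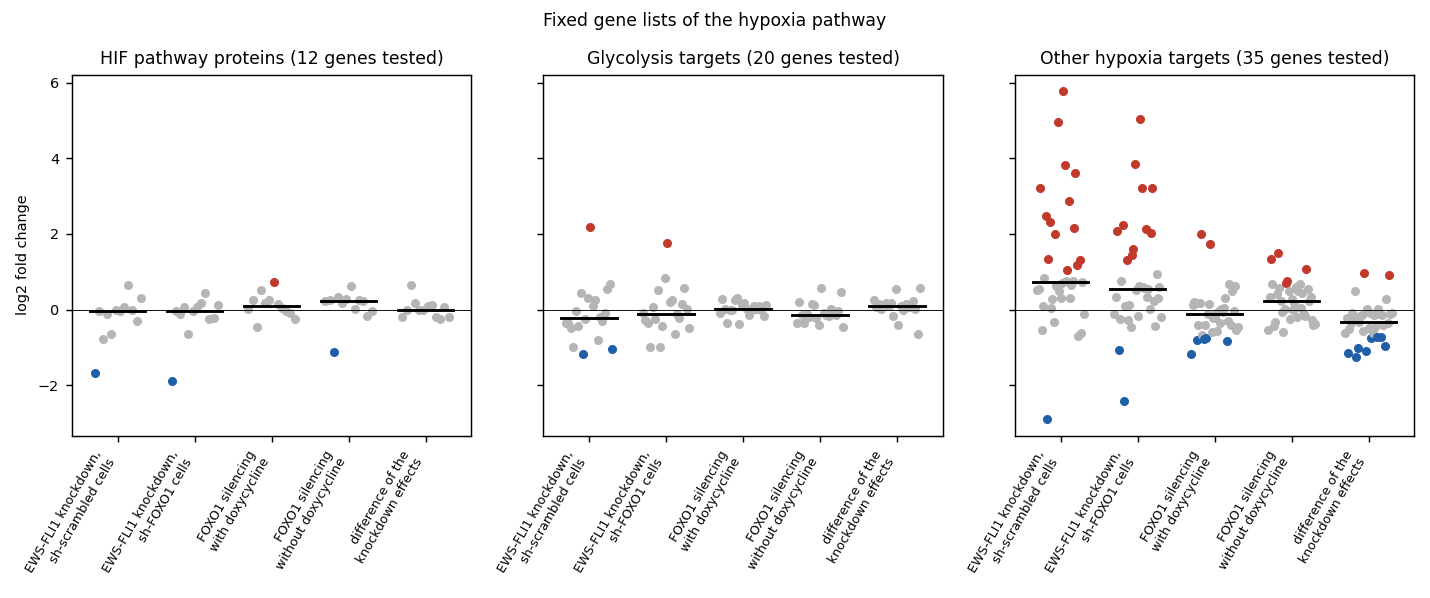
Log2 fold change of every tested gene (points) in 3 lists of the hypoxia pathway and 5 comparisons, with genes called higher in red, called lower in blue and the median as a line. After knockdown in sh-scrambled cells 14 of the 35 other hypoxia targets are higher and 1 lower, against 0 and 1 of 12 HIF pathway proteins and 1 and 2 of 20 glycolysis targets.

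In FOXO1 silencing with doxycycline, where mean EPAS1 was 8.10 against 9.86, most targets were not called. Of the 58 tested 5 fell (8.62%, against 2.37% of all genes) and 2 rose (3.45%, against 3.08%), with a median of −0.02. AK4, a mitochondrial adenylate kinase gene, fell by 1.16 (standard error 0.13, adjusted p = 0.00064, limma). PLOD2, a collagen lysyl hydroxylase gene, fell by 0.83, BNIP3, a mitophagy gene, by 0.79, EFNA1, the ephrin A1 gene, by 0.77 and ERO1A, a disulfide-forming oxidase gene, by 0.74. Of these 5, 1 (EFNA1) was among the targets that rose with knockdown in sh-scrambled cells. CXCR4 rose by 1.99 and HMOX1, the heme oxygenase 1 gene, by 1.73. The brightest probe set of each gene gave 3 targets lower in place of 5. ERO1A turned to 0.45 by its brightest probe set, 222646_s_at, and PLOD2 was at −0.69 by its own.

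Without doxycycline, where EPAS1 was at 5.52 against 5.41, FOXO1 silencing gave 5 targets higher (8.62%, against 3.45% of all genes) and 0 lower by limma, which was also 0 lower at an unadjusted p under 0.05. They included CXCR4 (1.49), BHLHE40, a clock and stress repressor gene (1.33, adjusted p = 2.2e-05, limma), and STC1 (1.07). The brightest probe sets gave 1 target lower. KDR, the VEGF receptor 2 gene of the endothelial list, rose by 2.10 without and 1.56 with doxycycline, beside the absence of CDH5, VWF, TIE1, ERG and ESAM above the 60th percentile. The mean level of the 8 endothelial markers was 4.77 to 4.81 in sh-scrambled cells, 5.04 to 5.14 with doxycycline, 5.02 to 5.06 in sh-FOXO1 cells and 5.30 to 5.40 with doxycycline, which moved with KDR. With knockdown in sh-scrambled cells PECAM1 and TEK differed by 0.04 and −0.15, and with FOXO1 silencing without doxycycline by 0.12 and −0.12. All arrays come from A673sh cells, so the endothelial list describes marker RNA in that line.

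The knockdown effect differed between the cell groups in 10 targets. It was smaller in sh-FOXO1 cells for 8 (13.8%, against 2.45% of all genes) and larger for 2 (3.45%, against 1.46%). Of the 8, 7 had risen with knockdown in sh-scrambled cells and 5 where FOXO1 was silenced. DDIT4, an inhibitor of mTORC1 signalling, differed by −1.24 (standard error 0.11, adjusted p = 0.00068, limma), BHLHE40 by −1.13, IGFBP3 by −1.09 and EFNA1 by −1.01. DDIT4 differed with FOXO1 silencing both without doxycycline (0.58) and with it (−0.66), whereas BHLHE40 differed without it (1.33) and by 0.20 with it (adjusted p = 0.059, limma). DDIT4 was at 8.61 and 8.53 in sh-scrambled cells, 9.86 and 9.99 with doxycycline, 9.19 and 9.11 in sh-FOXO1 cells and 9.23 and 9.29 with doxycycline. BHLHE40 was at 6.89 and 6.88, 10.1 and 10.1, 8.22 and 8.21, and 10.3 and 10.3 in the same order. HMOX1 (0.98) and VLDLR, a lipoprotein receptor gene (0.91), had the larger effect in sh-FOXO1 cells. The count of 8 was 5 without array 1 or 2 of the sh-FOXO1 doxycycline group or array 1 of the sh-scrambled doxycycline group, and up to 10 without other arrays.

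Likeness to EPAS1 was measured as Pearson's r over the 7 group means, a description with no test, since the groups share a cell line and platform and lie mostly along doxycycline. ADM had r = 0.93, NDRG1 0.76, HIF1A 0.74 and ANGPTL4 0.64. For EGLN1 r was 0.13 with the probe set used and 0.72 with the brightest, and for VEGFA it was −0.65 and −0.08. For ARNT it was −0.54 and 0.27. Among the 5022 genes whose group means span at least 1 log2 unit, ADM ranked 169th. The genes most like EPAS1 were ACSL1, a fatty acid activating enzyme gene (0.997), IRF9, an interferon response factor gene (0.990), CSGALNACT1, a chondroitin sulfate enzyme gene (0.988), UGCG, the glucosylceramide synthase gene (0.987), and PDLIM7, a cytoskeletal adaptor gene (0.985). The mean of CSGALNACT1 was 6.18 in sh-scrambled cells with doxycycline and 3.39 to 4.99 in the other groups. Only the former, where EPAS1 was also highest, is past the filter level, so the filter favoured its high r. Of the 58 targets 18 (31%) had r above 0.8, against 1195 of 12325 genes (9.7%). Among the 5022 genes that span at least 1 log2 unit it was 818 (16.3%), while the 58 targets were not chosen by span.

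Each FOXO1 mutant was compared with empty vector, 1 array against 1, so there is no replicate check. With AKT-resistant FOXO1, EPAS1 was at 6.83 against 5.93, a difference of 0.90 that belongs to the grounds on which the study picked it. It was the 1 gene of the 8 past the limit of 0.7, against 3.2% of all genes (1.69% higher, 1.51% lower). ADM was at 7.76 against 7.62, NDRG1 at 7.44 against 7.04, VEGFA at 7.38 against 7.17 and HIF1A at 11.75 against 11.65. ANGPTL4 was at 5.94 against 6.33, but its second probe set, 221009_s_at, differed by 0.20. With CDK2-resistant FOXO1, 0 of the 8 passed the limit, against 3.27% of all genes (1.73% higher, 1.54% lower). EPAS1 was at 5.71 (−0.22), ADM at 7.03 (−0.59), NDRG1 at 6.63 (−0.41), ANGPTL4 at 5.79 (−0.54, and −0.13 by the second probe set) and ARNT at 6.01 (0.47). FOXO1 itself differed by 2.46 and 1.22 on these arrays by probe set 202723_s_at, by 4.87 and 4.14 by 228484_s_at and by −0.17 and −0.27 by 202724_s_at.

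Among the 58 targets 4 were past the limit with AKT-resistant FOXO1, all higher (6.9%, against 1.69% of all genes), including IGFBP3 (1.91), HMOX1 (1.19) and BHLHE40 (0.95). With CDK2-resistant FOXO1 2 were higher, CXCR4 (1.97) and FLT1, the VEGF receptor 1 gene (0.78), which is 3.45% against 1.73% of all genes, and 1 was lower, HMOX1 (−0.93), which is 1.72% against 1.54%. The control decides several of these values. The empty vector array differed from the sh-scrambled arrays without doxycycline, with ADM at 7.62 against 6.59 and 6.49 and HMOX1 at 9.17 against 6.49 and 6.36. Against the mean of these 3 control arrays, EPAS1 (1.25), NDRG1 (1.00) and ADM (0.86) were past the limit with AKT-resistant FOXO1. The share of all genes past the limit against this mean was not counted, so these genes have no background to stand beside. With CDK2-resistant FOXO1, CXCR4 (0.15) and FLT1 (0.68) were then inside the limit, and HMOX1 turned to 0.90. The plasmid and shRNA arrays come from separate transfections.

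**Figure D5:**
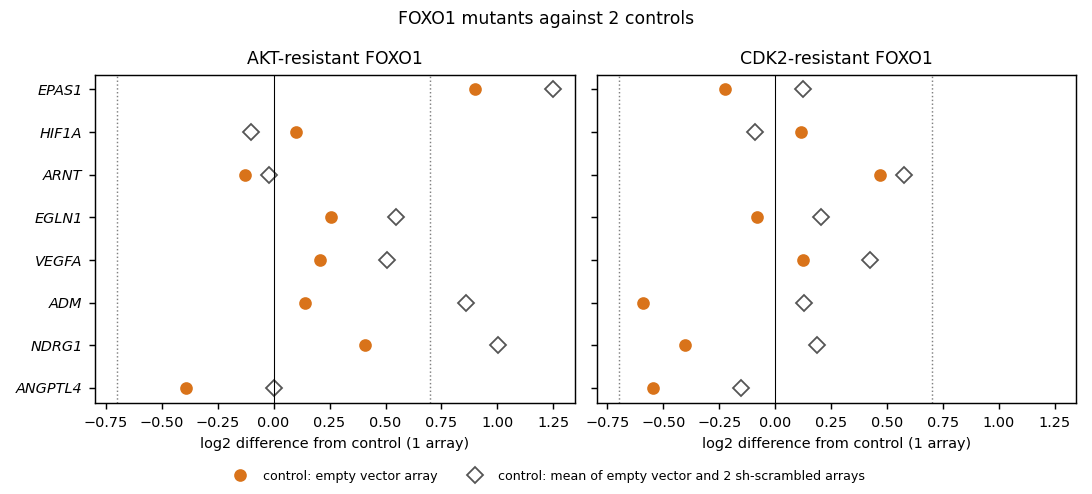
Log2 difference of each mutant array from the empty vector array (filled) and from the mean of the empty vector and 2 sh-scrambled arrays without doxycycline (open) for the 8 genes tested, with the limit of 0.7 dotted. EPAS1 is past the limit with AKT-resistant FOXO1 by both controls (0.90 and 1.25), ADM and NDRG1 by the second alone, and no gene with CDK2-resistant FOXO1.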

How the data were processed

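The data are 11 arrays of the Affymetrix HG-U133 Plus 2 design in 7 groups. The authors deposited 1 normalized value per probe set and array, taken here as log2 from its range, since neither the base nor the method is given in the sources used here. Levels of different genes were not compared, and probe sets of a gene were ranked by mean level to find the brightest. Of 54675 probe sets, 41097 have 1 gene symbol in the platform annotation, 1801 several and 11777 none. Each gene is represented by the probe set with the largest interquartile range among those at the 60th percentile or higher on any array. A limma model of 7 groups (limma 3.58.1, R 4.3.3) with Benjamini-Hochberg adjustment was fitted to 12326 genes, with 3.9 prior and 4 residual degrees of freedom (the latter from the replicated shRNA arrays). Its script was tested on simulated data. The limits (adjusted p under 0.05, log2 fold change past 1 for knockdown and 0.7 otherwise) follow the study's methods. The genes and lists were chosen with earlier results of these data known, so they are no independent evidence. Named genes outside the 10 are, per comparison, up to 4 list genes with the largest rise and 4 with the largest fall (3 for single arrays), and the 5 genes most like EPAS1, beside genes of the lists of HIF pathway proteins and EPAS1-preferring targets and genes with an interaction call. PFKFB3, HK2, TPI1, ERO1A, CA12 and the levels of DDIT4 and BHLHE40 were added after their values were seen. Promoters are RefSeq windows of GRCh38.p14. The number of arrays limits the precision.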

Additional observations from a re-analysis of the deposited data

Results flagged for a closer look

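The interaction term of limma (adjusted p under 0.05, log2 difference past 0.7) called 482 of 12326 genes (3.91%). Of these, 12 were among the 8 genes chosen by name and the 58 hypoxia targets tested. Each value is the log2 effect of EWS-FLI1 knockdown in sh-FOXO1 cells minus that in sh-scrambled cells. Among the genes chosen by name these were ADM (−2.07) and EPAS1 (−1.87, a description, since the study picked EPAS1 on these arrays). Among the hypoxia targets the effect was smaller in sh-FOXO1 cells for DDIT4 (−1.24), BHLHE40 (−1.13), IGFBP3 (−1.09), EFNA1 (−1.01), STC2 (−0.95), LOX (−0.74), P4HA2 (−0.73) and PLOD2 (−0.72). By the brightest probe set the interaction was 0.02 for LOX and −0.56 for PLOD2. The knockdown difference was larger in sh-FOXO1 cells for HMOX1 (0.98) and VLDLR (0.91). The call of VLDLR was lost on leaving out any of 5 arrays, with differences of 0.78 to 0.96. The causes were not tested.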

How the results depend on the processing

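Of 1633 values recomputed under alternatives, 1561 kept their direction and their side of the limits or moved within the allowed range, 56 moved further, 13 lost a call, 2 gained one and 1 reversed. With the brightest probe set of each gene, the targets lower after FOXO1 silencing numbered 3 with doxycycline (5 before) and 1 without (0 before, and 1 with all probe sets), and those lower with CDK2-resistant FOXO1 numbered 3 (1 before). Against the mean of 3 control arrays, AKT-resistant FOXO1 gave 3 of the 8 genes higher (1 before) and targets 8 higher and 3 lower (4 and 0 before). CDK2-resistant FOXO1 gave 0 targets lower (1 before) and HMOX1 reversed to 0.90 (−0.93 before). For that control the share of all genes past the limit was not counted. On leaving out 1 array at a time, FOXO1 silencing with doxycycline gave 0 to 1 of the 8 genes higher, 1 to 2 lower and 2 to 4 targets higher. Without doxycycline it gave 0 to 1 targets lower. Knockdown in sh-FOXO1 cells gave 2 to 5 targets lower, and the interaction 1 to 2 higher and 5 to 10 lower. The causes were not tested. The count of 4 targets came without array 1 of the sh-FOXO1 doxycycline group, that of 5 lower in sh-FOXO1 cells without array 2 of the group without doxycycline.

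Replicate numbers are shared between groups, but nothing in the labels says that a number marks a common batch. With the replicate number as a block in the 4 shRNA groups, the interaction called 2 of the 8 genes and 8 targets lower, and no count of calls for the 8 genes or the targets moved past 1.5 times. The differences between replicates correlated at 0.44 to 0.62 over 6 pairs of groups, with 2 numbers only.

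Limits are the 2 arrays per shRNA group and 1 per plasmid group, the unknown share of transfected cells, and the lack of oxygen measurements and protein. An effect of doxycycline itself was not tested. On these arrays EPAS1 rests on 1 of 3 probe sets, and EGLN1, VEGFA, ARNT, LOX (interaction), ERO1A and TPI1 depend on which is read. Outside the arrays, the study reports RT-qPCR in A673sh cells, where EPAS1 rose with knockdown and FOXO1 shRNA largely abolished the rise. Doxycycline was given for longer in that RT-qPCR than before the arrays. On the arrays the EPAS1 rise was smaller in sh-FOXO1 cells but not abolished, at 2.58 against 4.45 in sh-scrambled cells (log2). The reason for this difference from the RT-qPCR was not tested.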
